A study of Homo sapiens with 9 samples.

Results

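The 10 genes described here are the BMP ligands BMP2, BMP4 and BMP7, the pseudoreceptor BAMBI, the shared mediator SMAD4, the inhibitory SMADs SMAD6 and SMAD7, and the targets ID1, ID2 and ID3. They were chosen by name, as known components of the bone morphogenetic protein (BMP) pathway, from the 63677 gene identifiers of the count files. Earlier results of these data were known when the choice was made. All 10 passed the filter on low counts in each of the 3 comparisons. SW480 is a human colon adenocarcinoma cell line in which BASP1, a neuronal signaling protein and transcriptional corepressor, is silenced, and the study asked how the cells change when BASP1 is expressed again. The 3 lines were sequenced as 3 libraries of poly(A) RNA each (n = 3). SW480 are the parental cells. SW480-B cells carry the plasmid pcDNA3-BASP1, which drives BASP1 from the CMV promoter, and are 1 clone selected with geneticin (G418). SW480-gRNA-B-all cells carry the MS2-P65-HSF1 activator, dCas9-VP64 and a pool of sgRNAs directed to the BASP1 promoter. They were selected with hygromycin B after the activator was brought in, grown from a GFP-positive clone of the dCas9 cells and then selected with puromycin. They are also called the CRISPRa line here. Clones, vectors and selection agents differ between the lines, and no empty-vector or sgRNA-free line is among these libraries, so an effect of BASP1 and one of the clone or the vectors cannot be told apart.

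BMPs are secreted ligands of the TGF-β superfamily. They bind pairs of serine/threonine kinase receptors, which phosphorylate SMAD1, SMAD5 and SMAD9; these join SMAD4, enter the nucleus and switch on targets such as the ID genes and the inhibitors SMAD6 and SMAD7, which close a negative feedback loop. In the normal colon BMP signals are strongest toward the top of the crypt, where cells differentiate, and secreted antagonists hold them down around the stem cells at the crypt base. In colorectal tumors the pathway is often weakened by loss of SMAD4, and SW480 cells are known for very little SMAD4, while BMP4, BAMBI and ID2 are known as genes that WNT/β-catenin signaling can activate in such tumors.

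Each library held 25238831 to 29355669 counts on genes. BASP1, the targeted gene, was at 11.3, 8.09 and 0.688 CPM (counts scaled to library size and with TMM factors) in SW480, at 255 to 270 CPM in SW480-B and at 166 to 308 CPM in SW480-gRNA-B-all, so that the 6 libraries titled as BASP1-expressing lines lay above the 3 parental ones. The lines were taken from the titles, which the genotype labels match, while the treatment label reads BASP1 activation for all 9 libraries, the parental ones included. The SW480 libraries spread most: replicates 1 and 3 differed by more than 2-fold in 23.9% of the tested genes, against at most 11.1% for a pair of SW480-B libraries. Between replicates 2 and 3 of the CRISPRa line 0.0186% of genes were more than 2-fold apart, and 16.8% of genes differed between them by more than counting noise, against 66.7% to 81.6% in the other pairs. They were kept as 2 libraries, and calls that are lost when they are summed into 1 are given below. Whether the 3 libraries of a line came from separate cultures is not given in the sources used here, so the p-values measure the spread between these libraries, which may be technical. The epithelial markers EPCAM, KRT8, KRT18 and KRT19 were high in all 9 libraries (at least 279 CPM), and CDH1 was at 20.4 to 72.6 CPM. The colon genes CDX1 and LGALS4 were at or below 0.798 CPM in each. CDX2 fell by 3.28 on the log2 scale in SW480-gRNA-B-all (edgeR quasi-likelihood test, Benjamini-Hochberg adjusted p = 0.00896), while VIL1 fell by 4.44 there (adjusted p = 0.0188, same test) and fell by 2.94 in SW480-B (adjusted p = 0.0255, same test). Their part in the results below was not tested. The 5 fibroblast markers summed to 3.93 to 5.48 CPM in SW480, 2.95 to 9.34 in SW480-B and 9.13 to 11.0 in SW480-gRNA-B-all. COL1A1 was the larger part in every library (2.30 to 10.9 CPM) and was called higher in the CRISPRa line against SW480 (1.21, adjusted p = 0.0362, edgeR), PDGFRB was at 0.170 to 1.65 CPM, COL3A1 was at 0, and COL1A2 and DCN were at 0.208 CPM or less. The endothelial and leukocyte markers summed to at most 4.33 and 2.71 CPM. In bulk RNA, fewer cells expressing a gene and less RNA per cell cannot be told apart.

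The promoters of BAMBI, SMAD6 and ID2 are shown because these genes differed between the lines by the test used here and have 1 start each in the RefSeq table (build GRCh38.p14); BMP4 and SMAD7 have 3 starts each, and the counts per gene do not say which was used. Each run is the 250 bases before the start, written 5′ to 3′ on the strand of the gene, all plus, and located by exact match in GRCh37 at chr10:28966200-28966449 (BAMBI), chr15:66994324-66994573 (SMAD6) and chr2:8821936-8822185 (ID2). Capitals mark matches to 6 motifs searched on both strands: the SMAD motifs GGCGCC and GTCTAGAC, the TCF/LEF motifs CTTTGAT and CTTTGAA, the TATA box TATAAA and the E-box CACGTG. No match overlapped another one here.
BAMBI: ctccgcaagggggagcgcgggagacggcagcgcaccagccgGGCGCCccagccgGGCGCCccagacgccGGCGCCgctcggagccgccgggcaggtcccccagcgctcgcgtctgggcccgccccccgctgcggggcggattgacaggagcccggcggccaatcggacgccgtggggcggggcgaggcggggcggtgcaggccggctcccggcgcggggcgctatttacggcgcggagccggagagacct
SMAD6: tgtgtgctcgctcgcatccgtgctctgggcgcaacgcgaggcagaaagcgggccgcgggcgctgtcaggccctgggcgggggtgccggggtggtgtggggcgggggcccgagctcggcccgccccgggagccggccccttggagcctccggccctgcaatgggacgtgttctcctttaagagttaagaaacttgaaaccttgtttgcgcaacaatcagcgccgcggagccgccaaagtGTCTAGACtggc
ID2: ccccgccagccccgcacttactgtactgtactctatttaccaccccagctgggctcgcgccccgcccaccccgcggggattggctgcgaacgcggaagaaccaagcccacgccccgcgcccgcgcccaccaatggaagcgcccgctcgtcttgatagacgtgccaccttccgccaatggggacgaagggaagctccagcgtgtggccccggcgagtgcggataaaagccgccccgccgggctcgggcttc

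The BAMBI promoter held GGCGCC 3 times, from 209, 196 and 181 bases before the start, and the SMAD6 promoter held the palindrome GTCTAGAC from 12 bases before it. GGCGCC lies in 19.2% of the 35116 promoter windows of the table (300 bases, up to 50 bases after the start) and GTCTAGAC in 0.202% of them. None of the 6 motifs was found in the ID2 window. Among the 8 of the 10 genes that the table holds, ID1 had TATAAA on both strands within 33 bases of the start (11.5% of all windows hold it), ID3 had CTTTGAA (4.43%), SMAD4 had GGCGCC, 1 of the 3 BMP4 windows had GGCGCC and another had CACGTG (7.26%), and 1 of the 3 SMAD7 windows had TATAAA. These letters are descriptions of the windows, and binding was not measured here.

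The ligand BMP2 (ENSG00000125845, chr20:6748333-6760893 in GRCh37, plus strand) was nearly lost in both BASP1-expressing lines. It was at 9.08, 17.8 and 4.53 CPM in the SW480 replicates 1 to 3, at 0.423, 0.143 and 0.144 CPM in SW480-B, and at 0.778, 0.610 and 0.712 CPM in SW480-gRNA-B-all. Every SW480 library lay above every library of the other lines, and each SW480-gRNA-B-all library lay above each SW480-B library. BMP2 fell by 5.44 on the log2 scale (43.4-fold, SE 0.72) in SW480-B, with an adjusted p of 0.0161 (edgeR, quasi-likelihood, Benjamini-Hochberg over all genes). In SW480-gRNA-B-all it fell by 3.93 (15.3-fold, SE 0.55, adjusted p = 0.0149, same edgeR test). The value in SW480-B rests on 19 counts in 3 libraries and that in SW480-gRNA-B-all on 62. Between the latter lines the log2 difference of 1.55 (95% interval 0.34 to 2.75) was not called (adjusted p = 0.114, edgeR). In the comparisons that hold SW480-B, BMP2 passed the filter on low counts only through the other line.

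BMP4 (ENSG00000125378, chr14:54416454-54425479, minus strand), another ligand of the same subgroup, was stepped over the 3 lines. Its levels were 164, 297 and 159 CPM in SW480, 69.8, 134 and 96.3 CPM in SW480-B, and 39.4, 53.4 and 51.6 CPM in SW480-gRNA-B-all. No library of one line reached into the range of another, and the order SW480, SW480-B, SW480-gRNA-B-all held in all of them. BMP4 fell by 2.14 on the log2 scale (4.41-fold, SE 0.28) in SW480-gRNA-B-all against SW480 (adjusted p = 0.0127, edgeR) and by 1.06 (2.09-fold, SE 0.24) against SW480-B (adjusted p = 0.0331, edgeR). SW480 and SW480-B, neighbors in that order, were not told apart by the test: the log2 fold change was -1.04 (95% interval -1.79 to -0.29, adjusted p = 0.190, edgeR).

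BMP7 (ENSG00000101144, chr20:55743809-55841697, minus strand), a ligand of the BMP5/6/7 subgroup, was the highest of the 3 ligands in CPM. It was at 248, 316 and 345 CPM in SW480, 122, 142 and 244 CPM in SW480-B, and 99.8, 258 and 256 CPM in SW480-gRNA-B-all. SW480-B lay below SW480 in every library by a narrow margin, and SW480-gRNA-B-all overlapped with both. The log2 fold changes against SW480 were -0.61 (95% interval -1.45 to 0.23) in SW480-gRNA-B-all and -0.83 (-1.53 to -0.14) in SW480-B, neither called (adjusted p = 0.296 and 0.241, edgeR).

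Per kilobase of the canonical transcript, which allows levels of different genes to be compared, BMP4 stood at 107 CPM per kb and BMP7 at 75.4 in SW480, with BMP2 at 2.95. In SW480-gRNA-B-all BMP7 stood above BMP4, at 50.8 and 24.9 CPM per kb, and BMP2 was at 0.198. Within each library, BMP7 made up 33.1% to 50.7% of the summed CPM per kb of these 3 ligands in SW480, 33.7% to 54.8% in SW480-B and 54.6% to 70.3% in SW480-gRNA-B-all. The SW480-B libraries overlapped with the parental ones. In SW480-gRNA-B-all the nearly alike replicates 2 and 3, at 69.7% and 70.3%, stood clear of all others. Replicate 1 of that line, at 54.6%, did not. A share within a library does not depend on the scaling between libraries, and it was not tested.

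**Figure D1:**
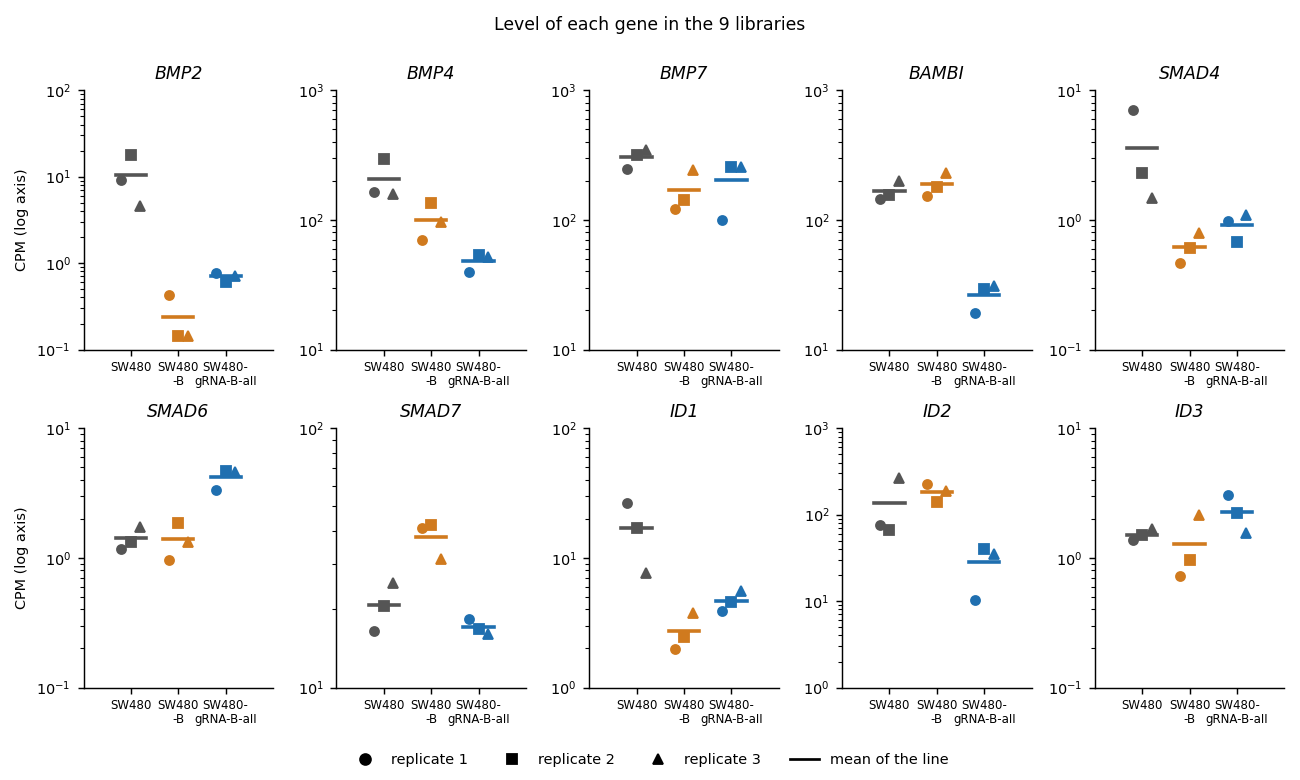
Level of each of the 10 genes in CPM, on log axes that differ between panels, in the 3 libraries of SW480 (gray), SW480-B (orange) and SW480-gRNA-B-all (blue); markers give the replicate and lines the mean of each cell line. BAMBI is near 26 CPM in SW480-gRNA-B-all and at 145 CPM or above in every library of the other lines, and the SW480 libraries spread widely for BMP2, SMAD4, ID1 and ID2.

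BAMBI (ENSG00000095739, chr10:28966439-28971861, plus strand) encodes a transmembrane pseudoreceptor that lacks the kinase domain and dampens BMP and TGF-β signals. It was at 145, 156 and 200 CPM in SW480, 154, 178 and 230 CPM in SW480-B, and 19.2, 29.3 and 30.8 CPM in SW480-gRNA-B-all. The SW480 and SW480-B libraries overlapped, and all 3 libraries of SW480-gRNA-B-all lay far below them. BAMBI fell by 2.70 on the log2 scale (6.52-fold, SE 0.23) in SW480-gRNA-B-all against SW480 (adjusted p = 0.00538, edgeR), whereas in SW480-B the log2 fold change was 0.17 (95% interval -0.37 to 0.72, adjusted p = 0.762, edgeR). The direct comparison of the BASP1-expressing lines gave a fall by 2.83 (7.13-fold, SE 0.24, adjusted p = 0.000995, edgeR). BAMBI and SMAD4 are among the WNT pathway genes that the study displayed from these libraries, so the values of these 2 genes are not independent evidence of a direction.

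SMAD4 (ENSG00000141646, chr18:48554898-48611415, plus strand), the partner that receptor-activated SMADs share, was low throughout. It was at 7.04, 2.29 and 1.48 CPM in SW480, 0.461, 0.609 and 0.791 CPM in SW480-B, and 0.981, 0.678 and 1.09 CPM in SW480-gRNA-B-all. The SW480 libraries all lay above those of the other lines, but SW480 replicate 1 held most of the difference. The log2 fold changes against SW480 were -2.04 (95% interval -3.58 to -0.50) in SW480-gRNA-B-all and -2.55 (-4.10 to -0.99) in SW480-B, and neither was called (adjusted p = 0.0990 and 0.137, edgeR). Per kilobase the mean was 0.411 CPM in SW480, 0.0707 in SW480-B and 0.104 in SW480-gRNA-B-all, the lowest of the 10 genes in the last of these. The partners SMAD1 and SMAD5, by contrast, had at least 11.9 and 101 CPM in each library.

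SMAD6 (ENSG00000137834, chr15:66994574-67075187, plus strand), the inhibitory SMAD with preference for the BMP branch, was the one gene of the 10 that was called higher against SW480. It was at 1.18, 1.32 and 1.74 CPM in SW480, 0.961, 1.86 and 1.33 CPM in SW480-B, and 3.31, 4.64 and 4.61 CPM in SW480-gRNA-B-all. The 3 SW480-gRNA-B-all libraries lay above all others, which overlapped among themselves. The rise was 1.52 on the log2 scale (2.88-fold, SE 0.32) against SW480 (adjusted p = 0.0375, edgeR) and 1.59 (3.00-fold, SE 0.35) against SW480-B (adjusted p = 0.0275, edgeR). For SW480-B against SW480 the value was -0.02 (95% interval -1.04 to 0.99, adjusted p = 0.984, edgeR), an interval that leaves room for a change of about 2-fold either way.

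SMAD7 (ENSG00000101665, chr18:46446223-46477335, minus strand), which inhibits both the TGF-β and the BMP branch, was highest in SW480-B. It was at 16.4, 20.7 and 25.3 CPM in SW480, 41.1, 42.1 and 31.2 CPM in SW480-B, and 18.4, 16.8 and 16.0 CPM in SW480-gRNA-B-all. The SW480-B libraries lay above the rest, and the other lines overlapped. SMAD7 was lower in the CRISPRa line than in SW480-B by 1.17 on the log2 scale (2.25-fold, SE 0.19, adjusted p = 0.00948, edgeR). Against SW480 the log2 fold change was 0.88 (95% interval 0.31 to 1.45, adjusted p = 0.154, edgeR) in SW480-B and -0.32 (-0.81 to 0.17, adjusted p = 0.343, edgeR) in SW480-gRNA-B-all. SMAD6 and SMAD7, both inhibitors, thus differed between the BASP1-expressing lines in opposite directions.

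The ID genes encode helix-loop-helix proteins without a DNA-binding region, which bind E proteins and keep them from DNA. ID1 (ENSG00000125968, chr20:30193086-30194318, plus strand) was at 26.2, 16.9 and 7.64 CPM in SW480, 2.00, 2.47 and 3.77 CPM in SW480-B, and 3.92, 4.54 and 5.60 CPM in SW480-gRNA-B-all. The 3 lines did not overlap, with SW480 highest, but SW480 replicate 3 lay close to the others. The log2 fold changes against SW480, -1.91 (95% interval -3.01 to -0.82) in SW480-gRNA-B-all and -2.63 (-3.80 to -1.45) in SW480-B, missed the threshold (adjusted p = 0.0522 and 0.0543, edgeR). Between the BASP1-expressing lines the value was 0.76 (0.02 to 1.51, adjusted p = 0.195, edgeR).

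ID2 (ENSG00000115738, chr2:8818975-8824591, plus strand) was at 74.9, 67.1 and 262 CPM in SW480, 226, 139 and 187 CPM in SW480-B, and 10.4, 40.4 and 34.9 CPM in SW480-gRNA-B-all. SW480 replicate 3 was the highest of all 9 libraries, the other SW480 libraries lay below SW480-B, and SW480-gRNA-B-all lay below both lines. ID2 was lower in the CRISPRa line than in SW480-B by 2.70 on the log2 scale (6.51-fold, SE 0.46, adjusted p = 0.0114, edgeR). Against SW480 the value was -2.28 (95% interval -3.90 to -0.65, adjusted p = 0.0867, edgeR) in SW480-gRNA-B-all and 0.47 (-0.69 to 1.63, adjusted p = 0.693, edgeR) in SW480-B.

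ID3 (ENSG00000117318, chr1:23884417-23885992, minus strand) was low, at 1.38, 1.49 and 1.67 CPM in SW480, 0.730, 0.968 and 2.12 CPM in SW480-B, and 3.04, 2.20 and 1.56 CPM in SW480-gRNA-B-all. All 3 lines overlapped, and no comparison was called by edgeR, by DESeq2 or at an unadjusted p under 0.05. Per kilobase, ID2 was the leading ID transcript in all lines, at 104 CPM per kb in SW480, 142 in SW480-B and 22.0 in SW480-gRNA-B-all, against 17.2, 2.80 and 4.77 for ID1 and 1.59, 1.34 and 2.39 for ID3. ID2 made up 67.2%, 73.3% and 95.5% of the summed ID1, ID2 and ID3 level per kilobase in the SW480 replicates 1 to 3. In SW480-B its share was 96.0% to 98.4%, and in SW480-gRNA-B-all 52.6%, 81.7% and 78.5%. SW480 replicate 3 was nearer to the SW480-B libraries than to its own line in this make-up.

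**Figure D2:**
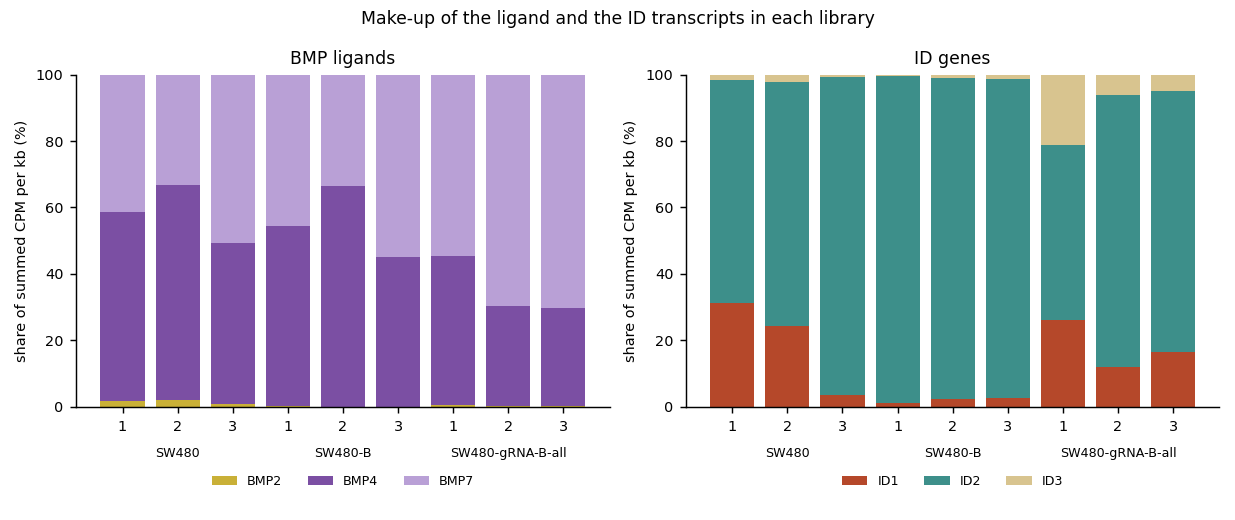
Share of each gene in the summed CPM per kilobase of BMP2, BMP4 and BMP7 (left) and of ID1, ID2 and ID3 (right), in percent, for each of the 3 libraries of the 3 lines. BMP7 reaches 69.7% and 70.3% of the ligands in the nearly alike replicates 2 and 3 of SW480-gRNA-B-all, and ID2 makes up 96.0% or more of the ID transcripts in each SW480-B library.

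In SW480-gRNA-B-all against SW480, BMP2, BMP4 and BAMBI were called lower and SMAD6 was called higher. To be called, a gene needed a change of more than 2-fold at an adjusted p below 0.05. Of the 10 genes, 3 were called lower, where 4.66% of all 16100 tested genes were, and 1 was called higher, where 1.89% were (6.55% in either direction, and 7.8% without the limit on size; 28.4% at an unadjusted p under 0.05). The libraries of the lines did not overlap for 7 of the 10, BMP2, BMP4, BAMBI, SMAD4, SMAD6, ID1 and ID2, against 37.7% of all genes. The median log2 fold change of the 10 was -1.98, beside -0.05 over all genes tested. Since earlier results of these data were known when the 10 genes were chosen, these shares describe the genes and do not test them as a set.

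In SW480-B against SW480, BMP2 was the single gene called, in the direction in which 1.25% of all 16106 tested genes were called; none was called higher by edgeR or DESeq2 (1, SMAD7, at an unadjusted p under 0.05), as 0.0931% of all genes were (1.34% in either direction, and 15.8% at an unadjusted p under 0.05). BMP2 passed the filter on low counts in this comparison only through the SW480 libraries, so its direction was set by the filter. The libraries did not overlap for 6 of the 10, BMP2, BMP4, BMP7, SMAD4, SMAD7 and ID1, against 22.5% of all genes. The median was -0.54, beside -0.00389 over all genes. Both comparisons use the same SW480 libraries, so their values are set side by side only. BMP2, BMP4, BMP7, SMAD4 and ID1 had negative values in both, while BAMBI, SMAD7 and ID2 lay below 0 in SW480-gRNA-B-all and above 0 in SW480-B.

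Comparing SW480-gRNA-B-all with SW480-B, the 4 genes BMP4, BAMBI, SMAD7 and ID2 were called lower, where 4.37% of all 15846 tested genes were, and SMAD6 was called higher, where 2.31% were (6.68% in either direction, and 8.76% without the limit on size; 24.4% at an unadjusted p under 0.05). This comparison tests directly whether the change from SW480 differed between the BASP1-expressing lines. The libraries did not overlap for 7 of the 10, against 30.3% of all genes, and BMP7, SMAD4 and ID3 were those that did. BMP2, among the 7, passed the filter on low counts here only through SW480-gRNA-B-all, so its direction was set by the filter. The median of the 10 was 0.41, beside -0.00444 over all genes.

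**Figure D3:**
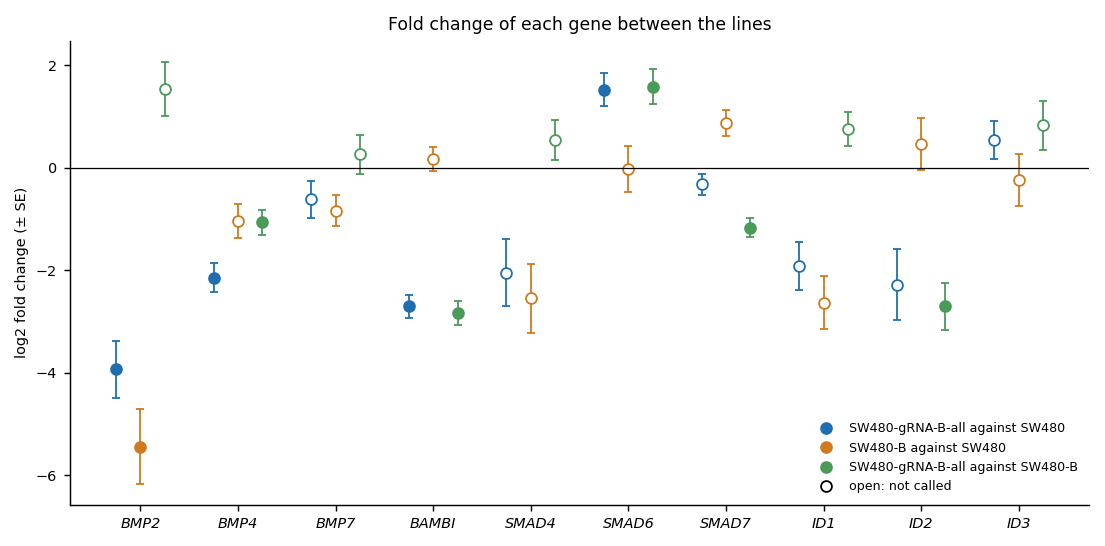
Log2 fold change with its standard error (bars) of each of the 10 genes in SW480-gRNA-B-all against SW480 (blue), SW480-B against SW480 (orange) and SW480-gRNA-B-all against SW480-B (green); filled points were called (adjusted p under 0.05 and more than 2-fold) and open points were not. BAMBI is at -2.70 and -2.83 in the comparisons that hold SW480-gRNA-B-all and at 0.17 in the remaining one, and BMP2 has the lowest values, -5.44 and -3.93.

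The calls depended on single libraries, as the plot of fold changes with each library left out shows. BAMBI was the most stable: it was called in 6 of 6 such fits against SW480-B and in 5 of 6 against SW480, the exception being the fit without SW480 replicate 2 (-2.73, adjusted p = 0.0501, edgeR). Without that library none of the 10 genes was called by edgeR in the CRISPRa line against SW480, and 0.0485% of all genes were. Without any 1 of the SW480-gRNA-B-all libraries BAMBI alone was called there, so that BMP2, BMP4 and SMAD6 lost their calls. BMP2 in SW480-B lost its call without any 1 of the SW480-B libraries (adjusted p of 0.0778 to 0.130, edgeR). In SW480-gRNA-B-all against SW480-B, ID2 was called in 5 of 6 fits and SMAD7 in 4, whereas BMP4 was called in 2 and SMAD6 in 3.

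**Figure D4:**
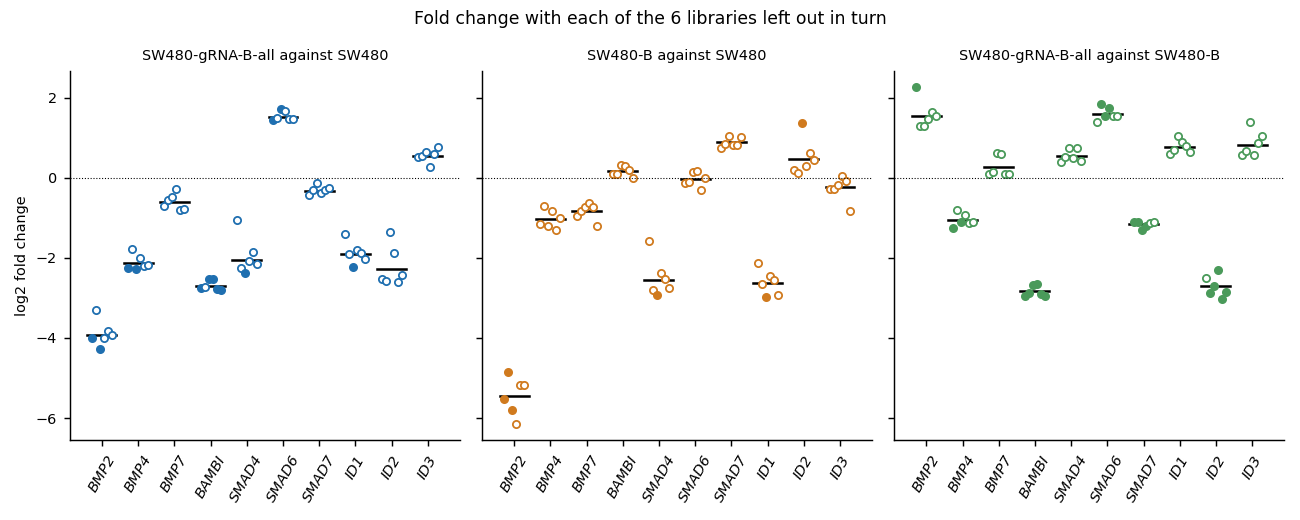
Log2 fold change of each of the 10 genes when each of the 6 libraries of a comparison is left out in turn (points; filled where called, open where not) and with all 6 libraries (black line), for the 3 comparisons. BAMBI stays between -2.95 and -2.52 in the comparisons that hold SW480-gRNA-B-all, whereas SMAD4 moves from -2.38 to -1.05 against SW480 and ID2 from -2.60 to -1.34.

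SW480 replicate 3, the library nearest to the BASP1-expressing lines for BMP2, SMAD4 and ID1 and the one with the least BASP1, had the opposite effect when left out. Then 6 of the 10 genes were called in SW480-gRNA-B-all against SW480, SMAD4 (-2.38, adjusted p = 0.0351, edgeR) and ID1 (-2.23, adjusted p = 0.0101, edgeR) being added, while 15.8% of all genes were called. In SW480-B, 4 were called, with SMAD4 (-2.92, adjusted p = 0.0308, edgeR), ID1 (-2.98, adjusted p = 0.00517, edgeR) and ID2 (1.37, adjusted p = 0.0350, edgeR) added to BMP2, and 5.46% of all genes. With the nearly alike replicates 2 and 3 of the CRISPRa line taken as 1 summed library, only BAMBI was called against SW480, and only BAMBI and ID2 against SW480-B. The adjusted p of BMP2, BMP4 and SMAD6 against SW480 was then 0.0774, 0.0632 and 0.160, and that of BMP4, SMAD6 and SMAD7 against SW480-B 0.102, 0.118 and 0.0586 (edgeR).

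The other 71 genes of the pathway were grouped into 8 lists. In the CRISPRa line against SW480, 53 of them could be tested, 7 were called lower and 1 higher, where 4.66% and 1.89% of all genes were, with a median log2 fold change of -0.14. For SW480-B against SW480 the numbers were 49 tested, 4 lower and 0 higher by edgeR, beside 1.25% and 0.0931% of all genes (median -0.02, with 2 higher at an unadjusted p under 0.05 and 0 by DESeq2). For SW480-gRNA-B-all against SW480-B they were 48 tested, 2 lower and 4 higher, beside 4.37% and 2.31% of all genes (median -0.06). Some of the called genes passed the filter on low counts only through the line where they were higher. These were BMP5, SOSTDC1, TCF4 and INHBA in the first comparison, BMP5 and SOSTDC1 in the second, and INHBA, GREM1 and SMAD9 in the third. Their direction was set by the filter, so these calls add no evidence to the counts. Each of the 8 calls in the first comparison was kept in 2 of the 6 fits without 1 library and lost without SW480 replicate 2 or any 1 library of the CRISPRa line, and with replicates 2 and 3 of the CRISPRa line summed BMP5 alone kept its call. Of the 6 calls against SW480-B, NOG alone was kept with these replicates summed, and BMP6 (adjusted p = 0.126, edgeR), NBL1 (0.0974), GREM1 (0.0825), SMAD9 (0.113) and INHBA (0.147) were lost.

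Among the other ligands, BMP5, the close relative of BMP7, was lost. It was at 23.0, 16.4 and 5.54 CPM in SW480, 0.231, 0.108 and 0.180 CPM in SW480-B, and had no count in any SW480-gRNA-B-all library. Against the limit of 3 counts over those libraries it was at least 450-fold lower there, and at least 326-fold lower with the highest SW480 library left out. In SW480-B BMP5 fell by 6.41 on the log2 scale (SE 0.70, adjusted p = 0.00963, edgeR). BMP6 was at 1.77, 5.76 and 4.06 CPM in SW480, 2.34, 3.01 and 6.08 CPM in SW480-B and 1.25, 0.644 and 0.509 CPM in SW480-gRNA-B-all, and was called lower against SW480-B (-2.24, adjusted p = 0.0301, edgeR). Of the 11 ligands in this list, 4 could be tested against SW480 in SW480-gRNA-B-all, and the remaining 7 had few or no counts.

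Of the 9 receptors and coreceptors tested in the CRISPRa line against SW480, RGMA alone was called by edgeR, while DESeq2 called 1 higher and 2 lower. Over all genes, edgeR called 6.55% in either direction there. RGMA, a coreceptor for BMP ligands, was at 16.2, 15.9 and 4.45 CPM in SW480, 0.538, 0.430 and 0.791 CPM in SW480-B and 0.846, 0.780 and 1.29 CPM in SW480-gRNA-B-all. It fell by 3.69 on the log2 scale (adjusted p = 0.0180, edgeR) in the latter and by 4.37 (adjusted p = 0.0199, edgeR) in SW480-B. The type I receptor BMPR1A, in comparison, was at 34.2 to 47.9 CPM over all 9 libraries, with a log2 fold change of -0.23 in the CRISPRa line (95% interval -0.59 to 0.14). BMPR1B and ACVRL1 had larger values that edgeR did not call. BMPR1B was at -3.34 in the CRISPRa line and -3.09 in SW480-B (adjusted p = 0.0698 and 0.221, edgeR). ACVRL1 was at 4.01 in the CRISPRa line (adjusted p = 0.0531, edgeR). Each passed the filter on low counts only through the line where it was higher.

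Secreted antagonists bind BMP ligands outside the cell. SOSTDC1 was at 1.64, 2.50 and 1.30 CPM in SW480 and at 0.204 CPM or less in every library of the BASP1-expressing lines, and fell by 4.00 on the log2 scale in the CRISPRa line (adjusted p = 0.0169, edgeR) and fell by 4.14 in SW480-B (adjusted p = 0.0255, edgeR). NBL1 was at 3.44, 6.21 and 9.67 CPM in SW480, 8.07, 9.14 and 10.9 CPM in SW480-B and 16.8, 20.9 and 22.2 CPM in SW480-gRNA-B-all. It was higher in the latter by 1.60 against SW480 (adjusted p = 0.0474, edgeR) and by 1.09 against SW480-B (adjusted p = 0.0173, edgeR). NOG, encoding noggin, was at 0.0983, 0.417 and 0.797 CPM in SW480, 0.461, 0.466 and 0.719 CPM in SW480-B and 2.20, 2.78 and 3.19 CPM in SW480-gRNA-B-all. It was called against SW480-B (2.29, adjusted p = 0.00890, edgeR; 5 of 6 fits without 1 library) and not against SW480 (2.60, adjusted p = 0.0544, edgeR). GREM1 stayed below 0.6 CPM in every library and was called higher against SW480-B (2.65, adjusted p = 0.0197, edgeR). It had 7 counts over the SW480-B libraries and 50 over the CRISPRa ones, and passed the filter on low counts only through the latter. The direction of GREM1 in this comparison was thus set by the filter, and its call adds no evidence to the count that follows. Of the antagonists tested in that comparison, 3 of 6 were thus called higher and 0 lower by edgeR (2 lower at an unadjusted p under 0.05, 1 by DESeq2), where 2.31% of all genes were called higher. With all 9 libraries in 1 fit none of the 3 was called (adjusted p of 0.0552 for NOG, 0.0717 for GREM1 and 0.106 for NBL1, edgeR).

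The 5 receptor-regulated SMADs had 0 edgeR calls against SW480 in either line. At an unadjusted p under 0.05 SMAD1 and SMAD2 passed in SW480-gRNA-B-all and SMAD9 in SW480-B, and DESeq2 called 0 and 1 of them. The 10 ubiquitin ligases and corepressors of SMADs had 0 calls by edgeR and by DESeq2 in all 3 comparisons, and 1, SKI in SW480-B against SW480, passed at an unadjusted p under 0.05. Over all genes, edgeR called 6.55%, 1.34% and 6.68% in the 3 comparisons, so lists this short can have no call at those shares. At an unadjusted p under 0.05 the shares were 28.4%, 15.8% and 24.4%. SMAD9, the least abundant of the receptor-regulated SMADs, was at 1.38, 1.77 and 0.724 CPM in SW480, 0.269, 0.179 and 0.180 CPM in SW480-B and 0.507, 1.53 and 1.59 CPM in SW480-gRNA-B-all. It was called higher in the CRISPRa line than in SW480-B (2.50, adjusted p = 0.0294, edgeR), a call kept in 1 of 6 fits without 1 library.

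Among other known BMP targets, MSX2 was at 75.0, 54.9 and 29.5 CPM in SW480, 12.3, 16.4 and 14.4 CPM in SW480-B and 10.3, 10.5 and 9.94 CPM in SW480-gRNA-B-all. It fell by 2.42 on the log2 scale (adjusted p = 0.0157, edgeR) in SW480-gRNA-B-all and by 1.89 (adjusted p = 0.0499, edgeR) in SW480-B. Same-numbered libraries of SW480-B and SW480 deviated together, and with a replicate block in the model the SW480-B value of MSX2 missed the threshold (adjusted p = 0.0543, edgeR) while INHBB passed it (-2.02, adjusted p = 0.0490, edgeR). The list of 5 other targets had 4 genes that passed the filter for the CRISPRa line against SW480, with 2 above and 2 below 0. MSX1, the most abundant of them, was at 20.6, 75.4 and 314 CPM in SW480, 190, 111 and 313 CPM in SW480-B and 108, 347 and 341 CPM in SW480-gRNA-B-all. Its lines overlapped, and the log2 fold changes against SW480, 0.93 (95% interval -1.20 to 3.06) in the CRISPRa line and 0.61 (-1.26 to 2.48) in SW480-B, were not called. HEY1 and ATOH8 had values of -1.60 and 0.62 in the CRISPRa line, neither called. ID4, the fourth ID gene, was at 1.31, 0.382 and 0 CPM in SW480, with 51 counts in all, and had 4 counts in SW480-B and 0 in SW480-gRNA-B-all. Since SW480 replicate 3 also had no count of ID4, the lines overlapped, and ID4 could not be tested. Of the E proteins that ID proteins bind, TCF3 and TCF12 were abundant, with at least 87.1 CPM in each library, and had no call, whereas TCF4 was at 2.23, 1.70 and 1.01 CPM in SW480 and at 0.288 CPM or less in the libraries of the other lines. TCF4 fell by 4.18 in the CRISPRa line (adjusted p = 0.0123, edgeR) and had a value of -3.23 in SW480-B (adjusted p = 0.0779, edgeR).

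**Figure D5:**
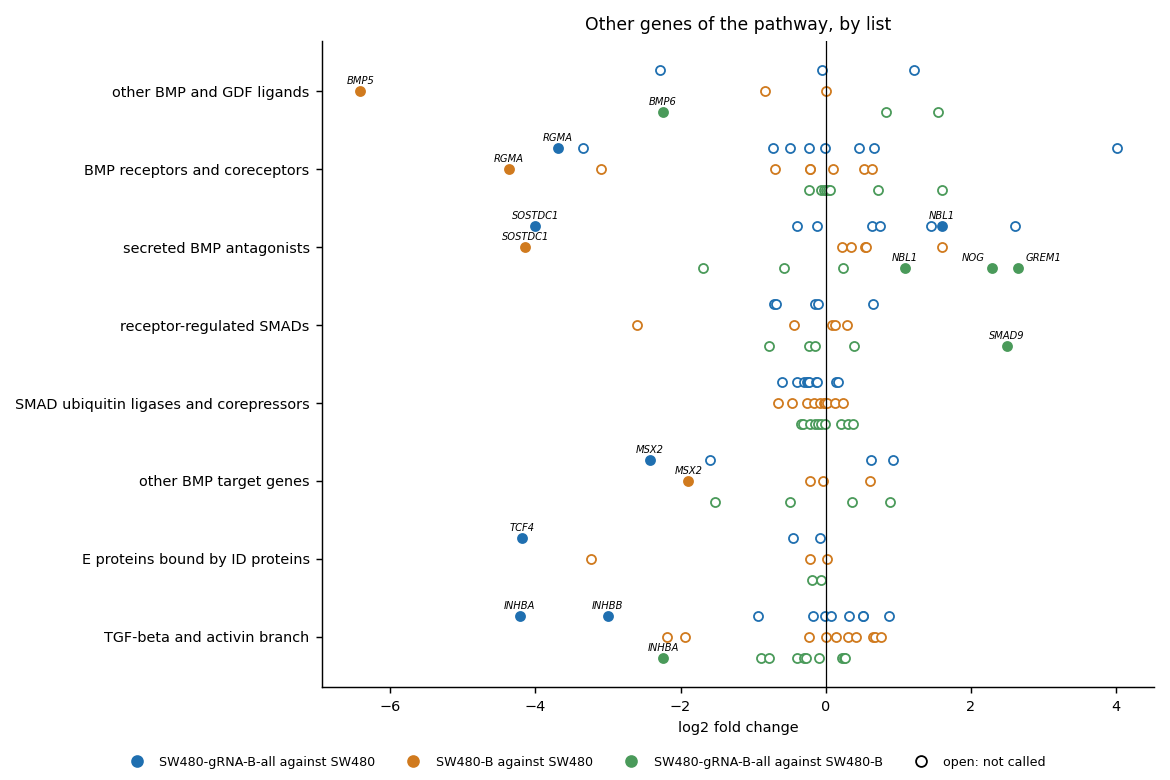
Log2 fold changes of the other pathway genes that could be tested, by list (rows), in SW480-gRNA-B-all against SW480 (blue), SW480-B against SW480 (orange) and SW480-gRNA-B-all against SW480-B (green); filled, named points were called and open points were not. BMP5 in SW480-gRNA-B-all against SW480 is not drawn, since it had 0 counts in SW480-gRNA-B-all; the ligases and corepressors of SMADs lie close to 0, and NBL1, NOG and GREM1 are the called antagonists on the right.

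The genes around each member were examined as a description of its stretch of chromosome. Within 1 Mb of BAMBI, 7 other genes were tested in the CRISPRa line against SW480, with a median log2 fold change of -0.40 and 1 call. Around BMP2 the 7 neighbors had a median of 0.38 and no call, and around SMAD6 the 19 neighbors had -0.33 and no call. Both SMAD4 and SMAD7 lie on chromosome 18, and their 8 neighbors each had medians of -0.67 and -0.58, with 0 and 1 calls. Over all genes in this comparison the median was -0.05, and 6.55% were called in either direction. The largest number of called neighbors over all members and comparisons was at ID2 in SW480-gRNA-B-all against SW480-B, 4 of 15, with a median of -0.37. Of all genes in SW480-gRNA-B-all against SW480-B, 6.68% were called in either direction. This count was picked as the largest, and it was not tested.

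The genes with profiles most like those of BAMBI, SMAD4 and ID1 were found by the root mean square difference in log2 CPM, each gene centered on its mean, over the 9 libraries and 9798 to 9799 genes with a mean of at least 10 CPM. For BAMBI these were ABHD12B (0.341), PDE4D (0.373) and TNFRSF19 (0.386), where the median over all genes was 1.38. For SMAD4 they were PTBP2 (0.452), ZNF711 (0.455) and ZFPM1 (0.508; median 1.16). For ID1 they were PTBP2 (0.350), IDH2 (0.462) and ZFPM1 (0.476; median 1.20), so that PTBP2 and ZFPM1 stood in both lists. The libraries share depth and line, and the likeness is given with no test.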

How the data were processed

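Poly(A) RNA of the 3 lines was sequenced by the authors from stranded libraries, and the reads were aligned to GRCh37 with the Ensembl annotation. The authors deposited whole-number counts of fragments per gene, not normalized, with 1 file per library. The aligner is named only in the header of the deposited metrics files (STAR), and the counting program and its strand setting are not given in the sources used here. Lines that name no gene (no feature, 5.22% to 9.93%; more than 1 gene, 3.09% to 3.44%) were left out of library sizes and of all tests. The metrics files, which hold shares of aligned bases and coverage along transcripts, were not used. Depth was 25238831 to 29355669 counts per library, so that 3 counts, taken as the limit of a gene at 0, correspond to 0.102 to 0.119 CPM; this limit covers counting error only. Symbols, positions and transcript lengths were taken from a GRCh37 annotation (GENCODE lifted), which matched 55665 of 63677 identifiers, holding 99.4% of the counts, and 99 of 101 listed genes (all but HFE2 and PECAM1).

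Lines were compared in pairs, each fit holding the 6 libraries of its pair, with edgeR 4.0.16 in R 4.3.3 (filterByExpr with a least count of 10 and a least total of 15, TMM, glmQLFit with robust estimation, glmQLFTest). Adjusted p-values are Benjamini-Hochberg over all genes tested. A gene was called at an adjusted p under 0.05 and a change above 2-fold. Standard errors were derived from the log2 fold change and the square root of its F statistic. CPM use TMM factors over all 9 libraries, and CPM per kb the length of the Ensembl canonical transcript. In comparing replicates, 0.5 CPM was added before the ratio, and counting noise was a chi-square test at p under 0.05 on genes with a mean of at least 20 counts. The fits were tested on simulated data. The members and lists were chosen with earlier results of these data known. Genes were named by rule: the 10 members, BASP1, each gene of a pathway list called in any comparison, and the 3 nearest profiles to BAMBI, SMAD4 and ID1. Others were added after their values were seen: the receptor-regulated SMADs, SKI, TCF3, TCF12, BMPR1A, BMPR1B, ACVRL1, TGFBR1, ID4, MSX1, HEY1, ATOH8 and the cell type markers given by name. Alternatives were RLE size factors, no filter, a minimum of 1 CPM in 3 libraries, 1 fit over all 9 libraries, a replicate block, DESeq2 1.42.0, each library left out, the CRISPRa (SW480-gRNA-B-all) replicates 2 and 3 summed, and calls at any size of change.

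To check the pairing, deviations from the line means were correlated between same-numbered libraries. The 3 values for SW480-B with SW480 were 0.296, 0.324 and 0.404, all above the limit of 0.1 for pairing, and 0.297, -0.0385 and 0.275 for SW480-gRNA-B-all and SW480, which are not taken as paired. What a number marks is not given in the sources used here.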

Additional observations from a re-analysis of the deposited data

Results flagged for a closer look

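For 5 of the 10 genes the change from SW480 differed between SW480-gRNA-B-all and SW480-B, by the direct edgeR comparison of these lines over the same 6 libraries. Of all 15846 genes tested there, 6.68% were called in either direction. BAMBI had the clearest difference, -2.83 on the log2 scale, with 6 of 6 libraries on their own side, and was called in all fits without 1 library. ID2 differed by -2.70, and SMAD7 by -1.17. For SMAD7 the values against SW480 lay on either side of 0, at -0.32 and 0.88, and neither was called. BMP4 differed by -1.06, in the same direction as its fall from SW480. SMAD6 differed by 1.59, the single gene of the 5 that was higher in SW480-gRNA-B-all. BMP4 was called in 2 and SMAD6 in 3 of the 6 fits without 1 library. With replicates 2 and 3 of the CRISPRa line summed, only BAMBI and ID2 kept their calls. What sets the lines apart besides the way BASP1 is expressed, such as clone, vector and selection, was not tested.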

How the results depend on the processing

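Each result was recomputed under the alternatives. Counts of the 10 genes called moved by more than 1.5 times as follows. In SW480-gRNA-B-all against SW480 (4) there were 7 by DESeq2, 1 with replicates 2 and 3 of the CRISPRa line summed, and 0 to 6 without 1 library. In SW480-B against SW480 (1) there were 2 with RLE size factors, 3 with no filter, 2 with all 9 libraries in 1 fit, 3 by DESeq2, and 0 to 4 without 1 library. In SW480-gRNA-B-all against SW480-B (5) there were 2 with the summed replicates and 2 to 5 without 1 library. Of the other pathway genes, 8 were called in the first comparison, 1 with the summed replicates and 0 to 11 without 1 library. In the second, 4 were called, 7 each with no filter, with all 9 libraries and by DESeq2, and 0 to 9 without 1 library. In the third, 6 were called, 3 at a minimum of 1 CPM, 1 with all 9 libraries, 1 with the summed replicates, and 0 to 7 without 1 library. The cause was not tested, beyond the smaller number of libraries in the fits that leave out or sum some. In the main fits 6.55%, 1.34% and 6.68% of all genes were called in either direction. The share over all genes also moved between fits and is not given for each. These counts, and those with a replicate block below, thus do not tell a change in the listed genes from one in calling as a whole.

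With the replicate number as a block, 3, 1 and 5 of the 10 genes and 10, 4 and 6 of the others were called in the 3 comparisons; SMAD6 in SW480-gRNA-B-all against SW480 lost its call (adjusted p = 0.0531, edgeR), and no other of the 10 genes changed its call under the block. ID1 against SW480, not called in the report, was called with no filter, with all 9 libraries and by DESeq2 in both lines (adjusted p of 1.1e-05 to 0.0241), and SMAD4 by DESeq2 in both (0.0175 and 0.0044). The sign turned only for genes near 0 in SW480-B against SW480: BAMBI was -0.00556 without SW480-B replicate 3 (range without 1 library -0.00556 to 0.31), SMAD6 was 0.14 without SW480 replicate 3 and 0.18 without SW480-B replicate 1 (range -0.30 to 0.18), and ID3 was 0.040 without SW480-B replicate 1 (range -0.83 to 0.040). Of 378 recomputed log2 fold changes of the 10 genes, 321 kept direction and call. Depth limits genes near or below 1 CPM, BMP2 in the BASP1-expressing lines, SMAD4 and ID3 among them.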

Other observations

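The activin subunits INHBA and INHBB, ligand genes of the TGF-β and activin branch that signals through SMAD2 and SMAD3, were the called members of a list of 10. Over all genes, 6.55% were called in either direction in the CRISPRa line against SW480, and 6.68% against SW480-B. INHBB was at 296, 173 and 91.3 CPM in SW480, 35.3, 51.0 and 37.3 CPM in SW480-B and 42.2, 15.1 and 14.9 CPM in SW480-gRNA-B-all. It fell by 3.00 on the log2 scale in the CRISPRa line (adjusted p = 0.0340, edgeR), had a value of -2.19 in SW480-B (adjusted p = 0.0524, edgeR), and lost the first call in 4 of 6 fits without 1 library. INHBA was at 3.15, 2.36 and 0.761 CPM in SW480, 0.346, 0.788 and 0.503 CPM in SW480-B and 0.135, 0.0678 and 0.136 CPM in SW480-gRNA-B-all. INHBA fell by 4.21 in the CRISPRa line against SW480 (adjusted p = 0.0206, edgeR) and by 2.24 against SW480-B (adjusted p = 0.0391, edgeR; not called by DESeq2, adjusted p = 0.0574). The second of these calls was kept in 0 of 6 edgeR fits without 1 library and the first in 2 of 6. In both comparisons INHBA passed the filter on low counts only through the line where it was higher. Its direction was thus set by the filter, and these calls add no evidence of a fall. With replicates 2 and 3 of the CRISPRa line summed, neither INHBA (adjusted p = 0.0917, edgeR) nor INHBB (adjusted p = 0.122, edgeR) was called against SW480. TGFBR1, the type I receptor of TGF-β, was at 100 to 120 CPM in SW480 and 46.7, 69.2 and 63.7 CPM in the CRISPRa line, where the log2 value against SW480 was -0.93 (adjusted p = 0.0301, edgeR). It was under 2-fold and so was not called.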
